A study of Homo sapiens with 4 samples.

Results

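The genes described here are those of cholesterol and fatty acid synthesis in K562, a human leukaemia cell line that makes globins. They were chosen by name, as 32 enzymes and regulators of the mevalonate pathway, the sterol pathway and fatty acid synthesis, of which 31 stood in the deposited table of 23615 genes under the listed symbol. The remaining gene, SC5D, stood there under its older symbol SC5DL and is described beside the others without being counted. RNA-seq libraries came from cells treated for 3 h with 5 µM clofarabine dissolved in DMSO (final DMSO 0.005%) or treated with DMSO for the same time, 2 samples each. The clofarabine libraries are called C0 and C1 and the DMSO libraries V0 and V1. Only the letters C and V mark the conditions in the table. C was taken to be clofarabine and V vehicle, and if that is wrong each sign below is inverted. Whether the samples of a group were grown as separate cultures is not stated, and p-values then speak only of the variation among these samples, some of which may be technical.

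Cells build cholesterol from acetyl-CoA. The mevalonate pathway makes isoprenoid units, farnesyl diphosphate is committed to squalene at the branch to sterols, and a series of oxidations, reductions and isomerisations turns lanosterol into cholesterol. Fatty acid synthesis draws on the same acetyl-CoA. The transcription factors SREBP1 and SREBP2, encoded by SREBF1 and SREBF2, activate most of these genes when SCAP escorts them from the endoplasmic reticulum, and the INSIG proteins hold SCAP back when sterols are plentiful. Sterol depletion is known to raise these transcripts together. Clofarabine is a deoxyadenosine analogue that blocks ribonucleotide reductase and DNA polymerases.

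Estimated fragments per gene summed to between 8370550 and 23888755 per library. The erythroid markers of K562 were abundant, with HBE1, the embryonic beta-like globin, between 20950 and 25350 FPKM (fragments scaled to transcript length and library size) and GATA1 between 137 and 174 FPKM. The B-cell marker MS4A1 was listed at 0 in every library. Among the 11 markers of other lineages, the T-cell gene CD3D (between 29.2 and 35.3 FPKM) and the epithelial gene EPCAM (between 45.4 and 48.4 FPKM) were not near 0. Their part in the results was not tested.

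All 31 genes were expressed well enough to be tested, and after 3 h of clofarabine 1 of them, IDI1, rose and none fell, while 30 were not called. The call required p under 0.05 after Benjamini-Hochberg adjustment over 11761 genes in edgeR's quasi-likelihood test. By that rule 2.57% of all genes tested were called (1.54% higher and 1.03% lower), against 3.23% of the pathway genes. At an unadjusted p under 0.05, 8 of the 31 were reached, 6 higher and 2 lower, against 14.2% of all genes (8.17% higher and 6.06% lower). In bulk RNA, fewer cells expressing a gene and less RNA per cell cannot be told apart. The median log2 fold change of the 31 was 0.040, beside 0.0020 for all genes tested, and 21 of 31 had a positive value, beside 5948 of 11761. The groups did not overlap in 13 of the 31 (11 higher and 2 lower), or 41.9%, against 43.2% of all genes tested (22% higher and 21.3% lower). With a library left out, the median of the 31 was 0.030 without C0, 0.048 without C1, 0.023 without V0 and 0.054 without V1. For all genes tested it was −0.005, −0.004, 0.001 and 0 in that order.

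The sizes were small. The 95% interval of the fold change lay inside 1.5-fold in either direction for 31 of 31 genes, with bounds no lower than 0.698 and no higher than 1.46. SC5DL, not counted among them, had a wider interval of 1.11 to 1.60. These intervals come from edgeR's standard errors with 4 libraries and are not adjusted for the number of genes.

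**Figure D1:**
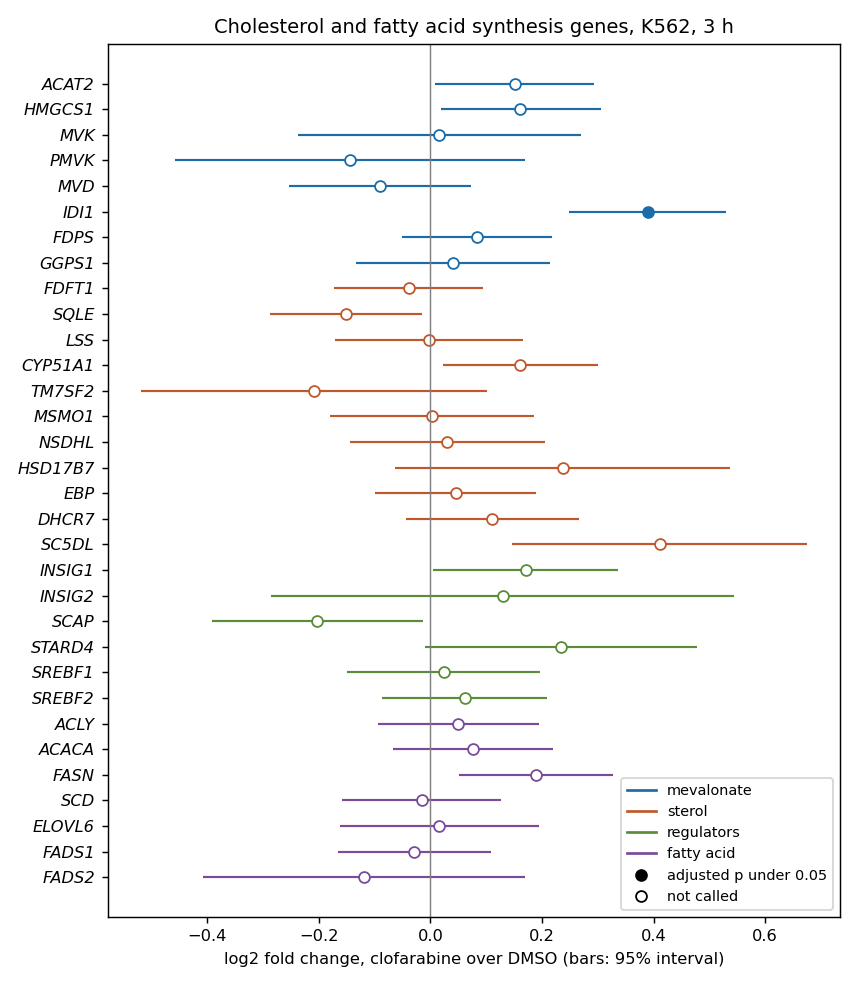
Log2 fold change of clofarabine over DMSO for each gene (points) with its 95% interval (bars), coloured by branch. Filled points have an adjusted p under 0.05. IDI1, at 0.39, is the filled point. SC5DL, at 0.41, is not called and has an interval of 0.146 to 0.675, and the other intervals lie near or across 0.

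Of the 8 mevalonate genes 1 rose, 0 fell and 7 were not called. IDI1, the isomerase that converts isopentenyl diphosphate to dimethylallyl diphosphate, stood at 228 and 232 CPM (fragments relative to the TMM-scaled library total) in C0 and C1 and at 183 and 168 CPM in V0 and V1. Both clofarabine libraries were above both DMSO libraries. IDI1 rose from 176 ± 10.7 to 230 ± 3.33 CPM (mean ± SD, n = 2), a fold change of 1.31 with a 95% interval of 1.19 to 1.44 (log2 0.39, SE 0.067, edgeR adjusted p = 0.00163). Its log2 fold change was 0.41 without C0, 0.37 without C1 and 0.45 without V0, each called, and 0.32 without V1 (edgeR adjusted p = 0.136). On the log2(FPKM + 1) scale it was 0.38 with a limma adjusted p = 0.06, and on log2(FPKM + 0.1) 0.39 with a limma adjusted p = 0.0587. The antisense gene IDI2-AS1 overlaps IDI1 in GENCODE release 29, and it held 14, 15, 6 and 1 fragments in C0, C1, V0 and V1, beside 3018, 5366, 1557 and 1885 for IDI1.

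At the entry of the pathway, ACAT2 condenses acetyl-CoA to acetoacetyl-CoA and HMGCS1 adds the next unit to give HMG-CoA. HMGCS1 stood at 496 and 469 CPM in C0 and C1 and at 452 and 410 CPM in V0 and V1, a log2 fold change of 0.16 (SE 0.069, unadjusted p = 0.0288, edgeR adjusted p = 0.282). ACAT2 stood at 276 and 308 CPM with clofarabine and at 265 and 263 CPM with DMSO (log2 fold change 0.15, SE 0.068, edgeR adjusted p = 0.317). In both genes the groups did not overlap, but neither was called with all 4 libraries. The HMGCS1 value was 0.23 without V0 and 0.085 without V1, and with the length trend removed it was called (0.19, edgeR adjusted p = 0.0333). The ACAT2 value depended on C1: it was 0.23 without C0 (edgeR adjusted p = 0.0217) and 0.065 without C1. ACAT2 is also overlapped on the opposite strand by TCP1, a chaperonin subunit with 10067 to 28285 fragments per library, and by SOD2. The log2 fold change was 0.083 for TCP1 (edgeR adjusted p = 0.673) and 0.157 for SOD2 (edgeR adjusted p = 0.321). No source used here states the strand setting of the counting. In GENCODE release 29, 12 of the 31 genes are overlapped by another of the 23615 genes. Among them are TM7SF2 by VPS51 and GGPS1 by TBCE, each on the same strand. The log2 fold change was −0.189 for VPS51 (edgeR adjusted p = 0.271) and 0.136 for TBCE (edgeR adjusted p = 0.419). What overlap adds to the counts was not tested.

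The kinases and the decarboxylase that follow did not show the same sign. MVK, mevalonate kinase, stood at 25.0, 23.5, 23.8 and 24.1 CPM in C0, C1, V0 and V1, so that its groups overlapped. PMVK, phosphomevalonate kinase, had a log2 fold change of −0.14 (95% interval −0.46 to 0.17) and MVD, the decarboxylase, one of −0.090 (95% interval −0.25 to 0.073). With a library left out, PMVK ranged from −0.28 (without C1) to −0.042 (without C0) and MVD from −0.17 (without V0) to −0.0010 (without V1). After IDI1, FDPS builds farnesyl diphosphate and GGPS1 lengthens it for protein prenylation. FDPS stood at 225 and 234 CPM with clofarabine and at 218 and 215 CPM with DMSO (log2 fold change 0.083, edgeR adjusted p = 0.636), and GGPS1 had a log2 fold change of 0.040 (edgeR adjusted p = 0.899). IDI1 thus stood between neighbours in the pathway that were not called.

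**Figure D2:**
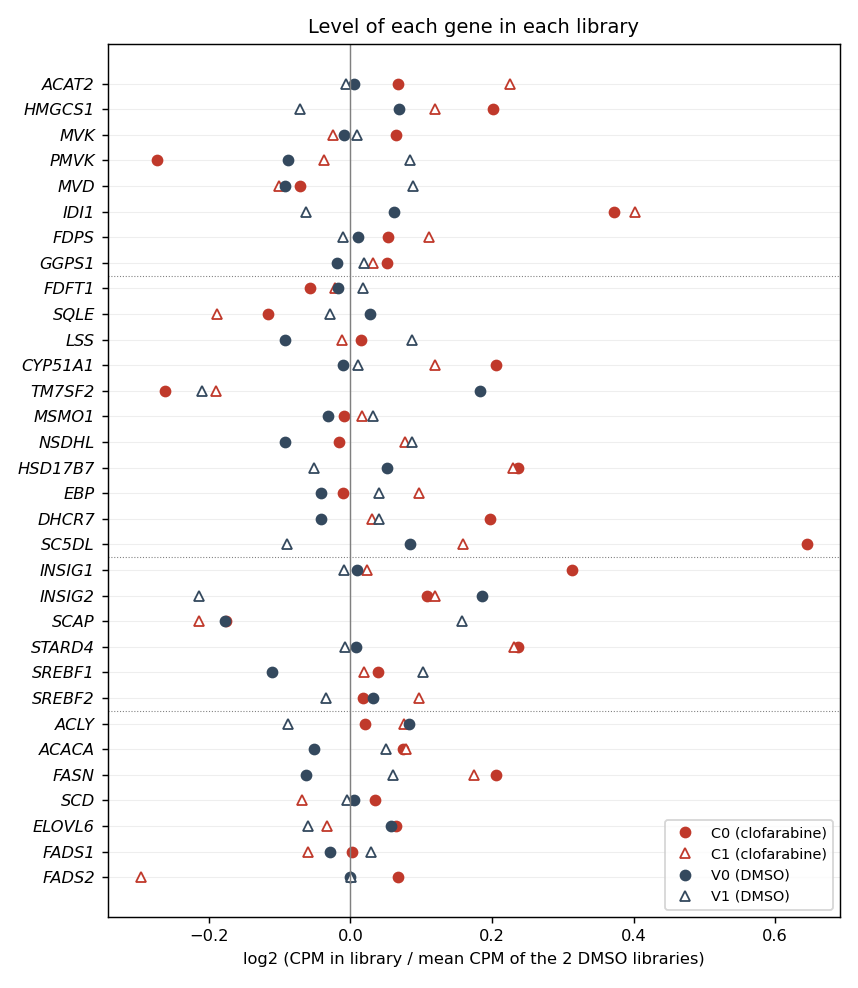
Level of each gene in each library, as log2 of CPM over the mean CPM of the DMSO libraries (red clofarabine, dark DMSO, circles library 0, open triangles library 1). For IDI1 and STARD4 the clofarabine points lie together above the DMSO points, while for INSIG1 and SC5DL only C0 stands well above.

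In the sterol pathway 0 of 10 genes were called by edgeR, 0 by DESeq2 and 0 by limma on log2(FPKM + 1), and 2 of 10 had an unadjusted edgeR p under 0.05, in opposite directions. SQLE, squalene epoxidase and a rate-limiting step, stood at 211 and 201 CPM in C0 and C1 and at 234 and 225 CPM in V0 and V1 (log2 fold change −0.15, SE 0.066, edgeR adjusted p = 0.288). CYP51A1, the lanosterol demethylase, stood at 187 and 177 CPM with clofarabine and at 161 and 164 CPM with DMSO (log2 fold change 0.16, SE 0.067, edgeR adjusted p = 0.268). The groups did not overlap in either gene, with SQLE lower and CYP51A1 higher in both clofarabine libraries.

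The other sterol enzymes lay closer to 0 or were measured on fewer fragments. FDFT1, squalene synthase at the branch point, had a log2 fold change of −0.039 with the narrowest interval of the sterol genes (−0.17 to 0.094). LSS, lanosterol synthase, and MSMO1, a methylsterol oxidase, were at −0.0030 and 0.0030. NSDHL, a sterol dehydrogenase, was at 0.030, EBP, a sterol isomerase, at 0.045 and DHCR7, which makes cholesterol from its last precursor, at 0.11, with overlapping groups in each. TM7SF2, a sterol reductase, was at −0.21 (95% interval −0.52 to 0.10), and there V0 alone was high, at 20.7 CPM against 15.2 to 16.0 CPM in the other libraries, and without V0 the value was −0.011. HSD17B7, a ketosteroid reductase with a closely similar pseudogene that makes its share of fragments uncertain, stood at 16.4 and 16.3 CPM with clofarabine and at 14.4 and 13.4 CPM with DMSO (log2 fold change 0.24, edgeR adjusted p = 0.507).

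SC5D, the sterol desaturase listed as SC5DL, had a larger fitted change than IDI1 but was not called. It stood at 54.2 CPM in C0 and 38.7 CPM in C1, beside 36.7 CPM in V0 and 32.6 CPM in V1. The groups did not overlap, yet C0 stood far above C1. The log2 fold change was 0.41 (SE 0.13, edgeR adjusted p = 0.10). It was 0.65 without C1 (edgeR adjusted p = 8.53e-06), 0.50 without V0 (edgeR adjusted p = 0.0159) and 0.17 without C0 (edgeR adjusted p = 0.624). Without V1 the value was 0.315. With all 4 libraries SC5DL was called without the filter on low counts (edgeR adjusted p = 0.00739) and with the length trend removed (edgeR adjusted p = 0.00556). DESeq2 (adjusted p = 0.334) and limma on log2(FPKM + 1) (adjusted p = 0.426) did not call SC5DL. Scaling by library size only did not call it either (edgeR adjusted p = 0.0607).

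Among the regulators 0 of 6 were called by edgeR, 0 by DESeq2 and 0 by limma on log2(FPKM + 1), and 2 of 6 had an unadjusted edgeR p under 0.05, INSIG1 with a positive and SCAP with a negative log2 fold change. Transcripts of the SREBP factors themselves overlapped between groups. SREBF2, the main activator of sterol genes, stood at 130 and 137 CPM in C0 and C1 and at 131 and 125 CPM in V0 and V1 (log2 fold change 0.061, 95% interval −0.086 to 0.21). SREBF1, which favours fatty acid genes, stood at 78.0 and 76.9 CPM with clofarabine and at 70.3 and 81.5 CPM with DMSO (log2 fold change 0.024, 95% interval −0.15 to 0.20).

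INSIG1, itself a target of the SREBPs, stood at 210 CPM in C0, 172 CPM in C1, 170 CPM in V0 and 168 CPM in V1. Only C0 was clearly high. The log2 fold change was 0.17 (SE 0.080, edgeR adjusted p = 0.329), 0.31 without C1 (edgeR adjusted p = 0.00306) and 0.024 without C0. INSIG2, its paralogue, was the weakest of the 31 at 3.39 FPKM over all libraries, and its log2 fold change of 0.13 had the widest interval (−0.29 to 0.54). SCAP stood at 77.8 and 75.8 CPM with clofarabine, 77.7 CPM in V0 and 98.0 CPM in V1, so that V1 alone was high (log2 fold change −0.20, edgeR adjusted p = 0.31). Without V1 the value was −0.026. STARD4, a sterol carrier and SREBP target, had tight groups at 28.6 and 28.4 against 24.4 and 24.1 CPM, on 207 to 657 fragments per library (log2 fold change 0.23, SE 0.12, edgeR adjusted p = 0.38).

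In fatty acid synthesis 0 of 7 genes were called by edgeR, 0 by DESeq2 and 0 by limma on log2(FPKM + 1), and 1 of 7 had an unadjusted edgeR p under 0.05. That gene was FASN, the synthase that assembles palmitate, at 312 and 305 CPM in C0 and C1 and 259 and 282 CPM in V0 and V1. Both clofarabine libraries were above both DMSO libraries, by a log2 fold change of 0.19 (95% interval 0.051 to 0.33, edgeR adjusted p = 0.164). FASN was called once a smooth trend on transcript length was removed from each library (0.21, edgeR adjusted p = 0.0183). DESeq2 (adjusted p = 0.301) and limma on log2(FPKM + 1) (adjusted p = 0.343) did not call FASN. The FASN value was 0.13 without V0 and 0.25 without V1. The enzymes before it, ACLY, which frees acetyl-CoA from citrate, and ACACA, which makes malonyl-CoA, were at 0.050 and 0.076.

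The enzymes that modify the finished chain showed no call in either direction. SCD, the stearoyl-CoA desaturase and the fatty acid gene with the most fragments, stood at 776 and 723 CPM with clofarabine and at 760 and 755 CPM with DMSO (log2 fold change −0.016, 95% interval −0.16 to 0.13). The clofarabine libraries of SCD lay on either side of the DMSO libraries. ELOVL6, an elongase, was at 0.016, and the polyunsaturated fatty acid desaturases FADS1 and FADS2 were at −0.029 and −0.12. FADS2 is overlapped on the same strand by FEN1 (log2 fold change 0.26, edgeR adjusted p = 0.0322). FEN1 held 2112 to 6749 fragments per library, beside 193 to 428 for FADS2. In FADS2 C1 alone was low, at 18.5 CPM against 22.7 to 23.8 CPM in the other libraries.

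The branches were compared by the median of their genes, which was 0.062 for the mevalonate genes, 0.016 for the sterol genes, 0.095 for the regulators and 0.016 for the fatty acid genes on the log2 fold change scale. In single libraries, the median log2 ratio of a mevalonate gene to its DMSO mean was 0.059 in C0 and 0.071 in C1, beside −0.0020 in V0 and 0.0020 in V1. For the regulators it was 0.074 and 0.060, beside 0.0090 and −0.0090. In these branches both clofarabine medians were above both DMSO medians, but the DMSO medians are held near 0 because each gene was divided by its DMSO mean. Gene by gene, the groups did not overlap in 5 of 8 mevalonate genes (5 higher) and 2 of 6 regulators (2 higher). Nor did they in 4 of 10 sterol genes (2 higher and 2 lower) and 2 of 7 fatty acid genes (2 higher). The share over all genes tested was 43.2% (22% higher). The medians of the sterol genes were −0.010 and 0.023 with clofarabine, beside −0.025 and 0.024 with DMSO, and these medians overlapped between groups. The fatty acid genes gave 0.065 in C0 and −0.033 in C1, so that the clofarabine libraries lay on either side of DMSO. The difference between branches was not tested, and with genes of 1 pathway in 2 libraries a group these medians are a description. The median of the sterol genes was 0.084 without V1 and −0.019 without V0, and that of the fatty acid genes was 0.064 without C1, −0.029 without C0 and −0.027 without V1.

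**Figure D3:**
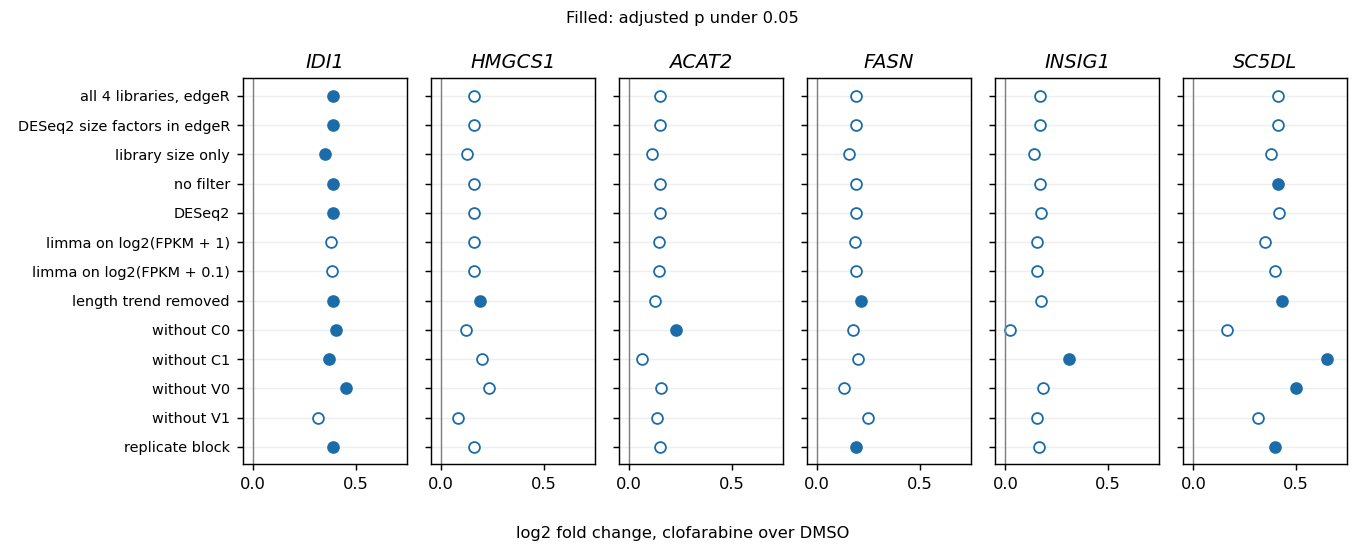
Log2 fold change of the genes IDI1, HMGCS1, ACAT2, FASN, INSIG1 and SC5DL under each way of processing (rows), filled where the adjusted p was under 0.05. IDI1 stays between 0.32 and 0.45, while INSIG1 and SC5DL move with the clofarabine libraries that are kept.

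Levels per transcript length ran from 3.39 FPKM for INSIG2 to 201 FPKM for ACAT2 as means over the 4 libraries. The highest were ACAT2 (201), FDPS (188), FDFT1 (179), EBP (166), SCD (139), FADS1 (117) and IDI1 (102 FPKM). Over libraries ACAT2 (189 to 222 FPKM) overlapped FDPS (181 to 197 FPKM), which overlapped FDFT1 (174 to 183 FPKM), which overlapped EBP (159 to 175 FPKM). SCD (134 to 144 FPKM) lay apart from EBP above it and from FADS1 (113 to 120 FPKM) below it. MVK (12.6 FPKM) and PMVK (between 11.3 and 14.5 FPKM), the kinases in the middle of the mevalonate pathway, were far below the enzymes on either side. Paralogues were unequal, with INSIG1 at 64.2 and INSIG2 at 3.39 FPKM, SREBF2 at 31.1 and SREBF1 at 15.8 FPKM, and FADS1 at 117 and FADS2 at 7.26 FPKM. In every library the first of each pair was above the second.

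**Figure D4:**
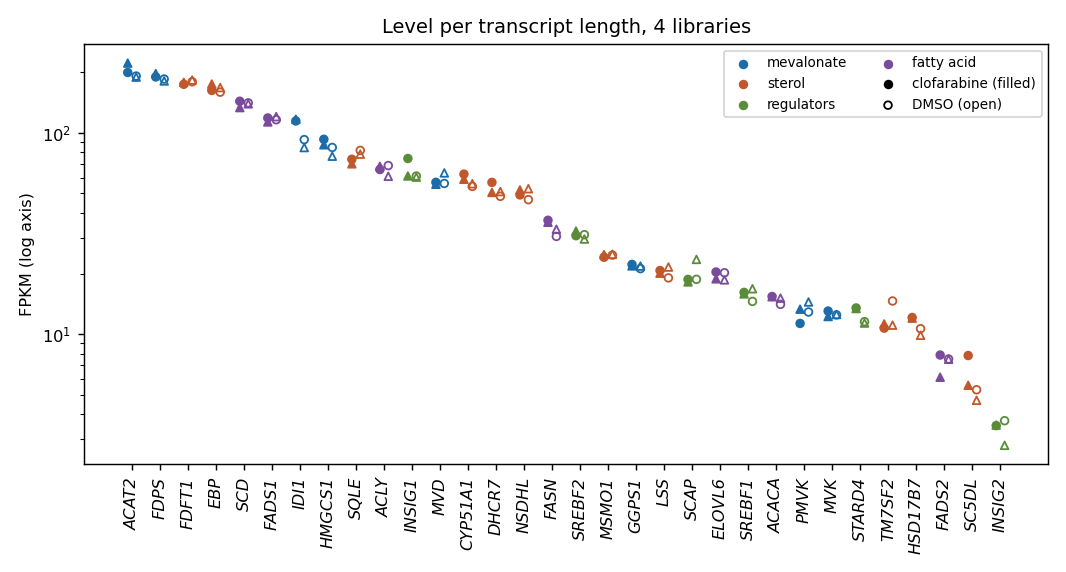
FPKM of each gene on a log axis, ordered by its mean, with clofarabine libraries filled and DMSO libraries open (circles library 0, triangles library 1), coloured by branch. Levels run from about 200 FPKM for ACAT2 to about 3 FPKM for INSIG2, and the libraries of a gene lie close together beside that range.

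Promoter windows, the 250 bases before the RefSeq start site, were read for 28 of the 32 listed genes (RefSeq, GRCh38.p14), those other than ACAT2, FDFT1, SQLE and FASN. The windows are shown for IDI1, the gene called, for HMGCS1, an enzyme at the entry of the mevalonate pathway, and for SREBF2 and INSIG1, the regulators that close the feedback loop. Capitals mark the CCAAT box, the motif of NF-Y, read as CCAAT or in reverse as ATTGG, and the core TCACNCCAC of the sterol regulatory element. IDI1 is shown from chr10:1056705-1056954, minus strand, HMGCS1 from chr5:43313413-43313662, minus strand, SREBF2 from chr22:41832855-41833104, plus strand, and INSIG1 from chr7:155297628-155297877, plus strand.
IDI1: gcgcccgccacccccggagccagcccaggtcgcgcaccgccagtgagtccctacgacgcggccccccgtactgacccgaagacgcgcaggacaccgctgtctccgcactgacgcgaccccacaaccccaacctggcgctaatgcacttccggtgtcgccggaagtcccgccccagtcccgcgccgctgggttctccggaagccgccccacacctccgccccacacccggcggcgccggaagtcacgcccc
HMGCS1: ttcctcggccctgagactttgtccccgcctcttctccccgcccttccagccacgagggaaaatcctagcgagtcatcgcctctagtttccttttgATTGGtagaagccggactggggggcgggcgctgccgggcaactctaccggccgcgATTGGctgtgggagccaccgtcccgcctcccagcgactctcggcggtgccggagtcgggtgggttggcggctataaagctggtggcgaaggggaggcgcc
SREBF2: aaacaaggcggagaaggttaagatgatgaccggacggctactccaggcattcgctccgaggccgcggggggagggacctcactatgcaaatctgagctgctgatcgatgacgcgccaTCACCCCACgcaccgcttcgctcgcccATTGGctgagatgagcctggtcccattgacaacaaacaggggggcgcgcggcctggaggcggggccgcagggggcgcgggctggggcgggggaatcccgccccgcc
INSIG1: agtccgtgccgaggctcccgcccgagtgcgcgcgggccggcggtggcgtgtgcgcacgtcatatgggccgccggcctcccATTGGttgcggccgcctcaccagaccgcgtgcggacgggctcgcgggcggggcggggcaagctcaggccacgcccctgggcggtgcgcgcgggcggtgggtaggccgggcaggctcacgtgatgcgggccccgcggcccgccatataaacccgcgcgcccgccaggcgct
The windows differ in these letters. HMGCS1 holds the CCAAT box 155 and 100 bases before the start, both in reverse, INSIG1 holds it at 170 bases, and SREBF2 holds it at 106 bases. The IDI1 window holds neither marked motif. It has the GC box GGGCGG, bound by SP1, in reverse at 84, 49 and 36 bases before the start. The HMGCS1, SREBF2 and INSIG1 windows hold the GC box as well.

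Over both strands, the CCAAT box was found in 17 of the 28 windows and in 32% of 35116 RefSeq windows of the same length (32.7% of those of protein-coding genes). The GC box was in 25 of 28, beside 42.6% of all windows and 53.7% of those of protein-coding genes. The core of the sterol regulatory element, TCACNCCAC, was in 1 of 28, SREBF2, at 133 bases before the start, beside 0.883% of all windows. The E-box CACGTG was in 3 of 28, beside 6.34%. These are matches of letters in a window, not sites of binding, and many genes start at more than 1 position.

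The lists of genes around the pathway held no call. Of 12 tested genes of other sterol synthesis and uptake, of 13 of SREBP processing and sterol sensing and of 28 of other lipogenesis, 0 were called by edgeR, 0 by DESeq2 and 0 by limma on log2(FPKM + 1). At an unadjusted edgeR p under 0.05 they held 3, 0 and 2 (25%, 0% and 7.14%), against 14.2% of all genes tested. The median log2 fold change was 0.11, −0.0029 and −0.042 in that order. NPC2, which carries cholesterol out of lysosomes, stood at 15.6 and 20.2 CPM in C0 and C1 and at 15.2 and 12.1 CPM in V0 and V1 (log2 fold change 0.42, SE 0.16, edgeR adjusted p = 0.212). Without C0 it was called, at 0.58 (edgeR adjusted p = 0.018), but it was 0.20 without C1 and 0.25 without V1 (edgeR adjusted p = 0.713 and 0.882). MID1IP1, an activator of acetyl-CoA carboxylase, stood at 67.1 and 68.1 CPM with clofarabine and at 81.6 and 82.1 CPM with DMSO, with tight groups that did not overlap (log2 fold change −0.28, SE 0.078, edgeR adjusted p = 0.0664). It was called when scaled by library size only (edgeR adjusted p = 0.0274) and with the length trend removed (edgeR adjusted p = 0.0226). DESeq2 (adjusted p = 0.277) and limma on log2(FPKM + 1) (adjusted p = 0.143) did not call MID1IP1. With a library left out its value lay between −0.29 and −0.26. In SREBP processing PAQR3, a Golgi protein, had the smallest p, at a log2 fold change of 0.089 (edgeR adjusted p = 0.789).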

How the data were processed

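RNA-seq of 2 clofarabine and 2 DMSO samples of K562 cells was analysed. Cuffdiff 2.2.1, TopHat2 2.0.13, cutadapt 1.5 and the build hg19 are named in the submitters' processing notes, and no source used here names the annotation. The authors deposited estimated counts, that is Cuffdiff's fragments assigned to each gene in each library, together with FPKM and a signal of scaled fragments, per the file headers. The signal was not used in a test. Libraries entered only as members of their group, since nothing ties the table's numbers 0 and 1 to the labels' replicates.

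Estimated counts were rounded to whole numbers. Of 23615 genes, 11761 passed edgeR's filterByExpr (minimum count 10), and groups were compared by edgeR's quasi-likelihood test with TMM (edgeR 4.0.16, limma 3.58.1, DESeq2 1.42.0, R 4.3.3). The biological coefficient of variation was 6.01% in common. Standard errors are the log2 fold change over the square root of F. The functions were tested on simulated data. The genes and lists were chosen with earlier results of these data known. All pathway genes may be named, and from each other list up to 2 called genes per direction by smallest p, or the gene of smallest p where none was called. Alternatives were DESeq2's size factors, library size only, no filter, DESeq2, limma on log2(FPKM + 1) and log2(FPKM + 0.1), removal of a trend on transcript length (loess, span 0.3), each library left out and a replicate block. Reading SC5D as SC5DL was added after seeing the data.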

Additional observations from a re-analysis of the deposited data

How the results depend on the processing

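With DESeq2's size factors each of the 40 named genes kept its direction and its side of the threshold. Scaling by library size only moved the median of all genes to −0.035 on the log2 scale and left 45.9% of calls higher instead of 59.9%. It gave 4 pathway genes at an unadjusted p under 0.05, against 14.1% of all genes. The medians were then 0.026 for mevalonate, −0.020 for sterol, 0.058 for regulator and −0.019 for fatty acid genes, and MVK (−0.020), MSMO1 (−0.034), NSDHL (−0.0070), SREBF1 (−0.012) and ELOVL6 (−0.019) changed sign. All genes called numbered 478 without the filter and 166 by DESeq2 (3 pathway genes at an unadjusted p under 0.05, against 4.94% of all genes). Limma on log2(FPKM + 1) and log2(FPKM + 0.1) called 56 and 72, of which 33.9% and 37.5% were higher. Both limma fits called 0 pathway genes, with 5 at an unadjusted p under 0.05 (against 12.3% and 12.4% of all genes). They put LSS at 0.0090 and 0.010 and MSMO1 at −0.020 in each, and the first gave a regulator median of 0.075. With the length trend removed 515 genes were called, 3 of them in the pathway (FASN, HMGCS1 and IDI1), the mevalonate median was 0.048, and LSS (0.0060) and SCD (0.011) changed sign. With the replicate block 796 genes were called, 2 of them in the pathway (FASN and IDI1), and SC5DL (adjusted p = 0.000907), SRD5A3 (adjusted p = 0.0152) and MID1IP1 (adjusted p = 0.00675) were called by edgeR. No label states whether same-numbered libraries were paired. The correlation between their deviations over 11761 genes was −0.0040, which cannot show whether they shared a culture or day.

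Leaving out each library in turn, which leaves a lone sample assumed to vary like the other group, gave 130 (without V1) to 636 (without C0) genes called, 0 to 2 in the pathway and 3 to 6 at an unadjusted p under 0.05. Of the calls 71.4% were higher without C0 and 43.8% without V1. The median ranged from 0.056 to 0.072 for mevalonate, −0.019 to 0.084 for sterol, 0.062 to 0.138 for regulator and −0.029 to 0.064 for fatty acid genes. Signs changed for MVK (−0.024 to 0.061), LSS (−0.085 to 0.087), MSMO1 (−0.026 to 0.029), NSDHL (−0.052 to 0.12), EBP (−0.016 to 0.097), SREBF1 (−0.073 to 0.133), INSIG2 (−0.079 to 0.329), ACLY (−0.042 to 0.138), SCD (−0.067 to 0.032), ELOVL6 (−0.050 to 0.074), FADS2 (−0.295 to 0.064) and PAQR3 (−0.035 to 0.22). Values that kept their sign but moved by over 1.5 times, beside those in the text, were those of FDPS (0.051 to 0.112), GGPS1 (0.023 to 0.054), FDFT1 (−0.060 to −0.021), TM7SF2 (−0.412 to −0.011), DHCR7 (0.030 to 0.192), SCAP (−0.353 to −0.026), SREBF2 (0.016 to 0.10), ACACA (0.028 to 0.123) and FADS1 (−0.059 to −0.0010). The cause of these changes was not tested. Reading SC5D as SC5DL, chosen after seeing the data, left the number of pathway genes called at 1. Depth limits the genes under 20 CPM most: INSIG2 rested on 77 to 200 fragments per library.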

Other observations

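The lists of genes that use, store or burn the products of the pathway held no call. Single genes ranged from −0.44 to 0.34 among isoprenoid users and from −1.06 to 0.18 in fatty acid oxidation (log2 fold change). The gene at −1.06 held only 10 to 20 fragments per library (SE 0.496), and the gene at 0.34 held 26 to 84 (SE 0.328). Both values are therefore imprecise. Tested were 16 users of isoprenoids (prenyltransferases, dolichol and ubiquinone enzymes), 8 genes of LXR signalling, sterol export and storage and 18 of fatty acid oxidation. Of these, 0 were called by edgeR, 0 by DESeq2 and 0 by limma on log2(FPKM + 1). At an unadjusted edgeR p under 0.05 the lists held 3, 1 and 3 (18.8%, 12.5% and 16.7%), against 14.2% of all genes tested. SRD5A3, a reductase of dolichol synthesis, stood at 14.9 and 19.8 CPM in C0 and C1 and at 24.5 and 23.3 CPM in V0 and V1, or −0.44 as log2 fold change (SE 0.14, edgeR adjusted p = 0.127). SRD5A3 was −0.27 without C0 and −0.68 without C1 (edgeR adjusted p = 0.0062), and was also called with library size only (edgeR adjusted p = 0.045) and without the filter (edgeR adjusted p = 0.0463). MYLIP, a ubiquitin ligase and LXR target, stood at 43.4 and 47.3 CPM with clofarabine and at 54.8 and 51.9 CPM with DMSO (log2 fold change −0.23, edgeR adjusted p = 0.241). PRKAA1, a catalytic subunit of AMP-activated kinase, stood at 69.1 and 68.9 CPM with clofarabine and at 79.7 and 77.6 CPM with DMSO (log2 fold change −0.19, edgeR adjusted p = 0.268). In these 3 genes, each named for the smallest p of its list, both clofarabine libraries were below both DMSO libraries. The same held for 21.3% of all genes tested. Of the 11 K562 markers, which include the fusion partners BCR and ABL1, 1 fell, GATA1 (log2 fold change −0.25, edgeR adjusted p = 0.0445), and this call ended when C0, V0 or V1 was left out, with edgeR adjusted p-values of 0.112, 0.263 and 0.254, by DESeq2 (adjusted p = 0.0936), and by limma on log2(FPKM + 1) and log2(FPKM + 0.1) (adjusted p = 0.189 and 0.182). Of 5 tested markers of other lineages 0 were called by edgeR, 0 by DESeq2 and 0 by limma on log2(FPKM + 1), 0 had an unadjusted p under 0.05, and PECAM1 had the smallest p (log2 fold change −0.45, SE 0.46, edgeR adjusted p = 0.741). Without C0 it was −0.18 and without C1 −0.92.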
